A study of Homo sapiens with 8 samples.

Results

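The open chromatin around 4 genes of the early B cell transcription factor network, BACH2, BCL6, BCL11A and FOXO1, was examined in ATAC-seq peak lists of 2 leukaemia lines. All peaks that overlap a fixed window at each gene, given in hg19, were taken: 90.60 to 91.05 Mb of chromosome 6 for BACH2, 187.42 to 187.75 Mb of chromosome 3 for BCL6 and the sequence upstream of it, 60.60 to 60.80 Mb of chromosome 2 for BCL11A, and 41.08 to 41.28 Mb of chromosome 13 for FOXO1. The windows held 650 of the 532743 peaks of all lists. After peaks of the 8 lists that share at least 1 bp had been merged, these came to 130 of 133028 regions, 38 at BACH2, 47 at BCL6, 27 at BCL11A and 18 at FOXO1. A region counts as called in every library with a peak inside it.

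ATAC-seq marks accessible DNA by the insertion of adapters by the Tn5 transposase. The libraries came from 697, a B cell precursor acute lymphoblastic leukaemia line, and from KOPN-8, another line of that disease. For each line there were 2 libraries of a clone edited at SETD2 with a guide RNA, labelled a heterozygous knockout (BM_B for 697, BA for KOPN-8), and 2 libraries of control cells that carry the empty guide vector and are wild type at SETD2. SETD2 is a histone H3 lysine 36 methyltransferase. Each edited arm was 1 clone, so a difference between clone and control can be that of 1 clone from other cells and that of the edit, which cannot be told apart. The labels name the libraries of a group biological replicates without saying how cultures were separated. The p-values therefore measure the spread between these libraries, which may be technical. Comparisons of 697 with KOPN-8 pool the clone and control libraries of each line, except where an arm is taken alone. The SD of a line thus mixes its arms. The p-value of such a comparison applies to these libraries and is not a test over independent replicates of a line. Lists held between 57154 and 76495 peaks, and read depth is unknown. The edit and the B lineage label were not checked against gene loci, because no hg19 gene annotation was used here.

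These factors act at the checkpoint at which a B cell precursor that has joined its heavy chain gene receives a signal from the pre-B cell receptor, leaves the cell cycle and rearranges its light chain genes. BACH2 and BCL6 are transcriptional repressors of the BTB family that act in opposite ways on the p53 pathway at this step, BCL6 protecting the cell from it and BACH2 favouring the removal of cells without a working heavy chain. FOXO1 is a forkhead activator that drives the recombinase genes and is held out of the nucleus by PI3K and AKT signalling. BCL11A is a zinc finger repressor needed for lymphoid development and known for silencing fetal globin in red cells.

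Promoter sequences are shown so that the DNA from which each gene is read can be seen. They come from RefSeq in GRCh38, 250 bases before to 50 bases after the start of the gene, on the minus strand, which all 4 genes use. For BCL6, with 2 promoters in the table, and BCL11A, with 5, the one farthest upstream is given. Because the peaks are in hg19 and no conversion was made, no peak was assigned to a promoter. Both strands were searched for a recognition sequence of each factor, TTCCTAGAA for BCL6, TGANTCA for BACH2, TGTTTAC for FOXO1 and TGACCA for BCL11A, none of which overlapped another in these promoters. Matches are in capitals.
BACH2 (GRCh38 chr6:90296794-90297093): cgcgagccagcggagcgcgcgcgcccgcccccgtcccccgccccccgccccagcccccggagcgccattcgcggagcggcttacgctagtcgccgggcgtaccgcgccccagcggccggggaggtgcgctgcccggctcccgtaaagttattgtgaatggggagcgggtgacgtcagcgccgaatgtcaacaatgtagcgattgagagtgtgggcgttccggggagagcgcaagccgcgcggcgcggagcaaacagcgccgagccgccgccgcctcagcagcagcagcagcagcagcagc
BCL6 (GRCh38 chr3:187745419-187745718): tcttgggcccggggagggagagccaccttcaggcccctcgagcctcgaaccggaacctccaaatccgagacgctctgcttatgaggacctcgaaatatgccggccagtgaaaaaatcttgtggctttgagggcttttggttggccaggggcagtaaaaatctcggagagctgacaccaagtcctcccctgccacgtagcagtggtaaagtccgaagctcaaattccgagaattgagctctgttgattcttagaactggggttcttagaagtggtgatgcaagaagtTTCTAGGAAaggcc
BCL11A (GRCh38 chr2:60553875-60554174): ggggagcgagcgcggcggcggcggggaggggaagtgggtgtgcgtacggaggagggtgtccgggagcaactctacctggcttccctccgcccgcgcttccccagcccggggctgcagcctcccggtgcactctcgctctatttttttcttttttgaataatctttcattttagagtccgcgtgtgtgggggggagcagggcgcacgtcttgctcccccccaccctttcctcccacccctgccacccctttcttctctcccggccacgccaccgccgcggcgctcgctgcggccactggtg
FOXO1 (GRCh38 chr13:40666592-40666891): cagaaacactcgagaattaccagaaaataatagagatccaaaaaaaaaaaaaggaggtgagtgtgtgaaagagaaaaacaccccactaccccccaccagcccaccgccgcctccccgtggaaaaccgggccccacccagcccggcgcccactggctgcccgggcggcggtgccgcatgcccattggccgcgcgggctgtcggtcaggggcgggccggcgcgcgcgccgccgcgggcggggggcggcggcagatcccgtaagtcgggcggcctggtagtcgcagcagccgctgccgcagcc
The capitals in BCL6 are a match to its own recognition sequence, read on the other strand, that begins at base 287 of the 300 shown. It was held by 0.373% of the 35116 promoters of this length in the table. In the second BCL6 promoter 1 match to the BACH2 sequence was found, TGAGTCA, which 7.71% of all promoters hold in some form, and the most downstream BCL11A promoter held 1 match to TGACCA (10.7% of promoters). The other 6 promoters held none of the 4 sequences, the FOXO1 sequence included (3.42% of promoters). BACH2, FOXO1 and BCL11A have promoters rich in G and C, with 73.3%, 68.0% and 67.0% of these bases in the sequences shown, and BCL6 has 53.0%, against a median of 58.7%.

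Across the 4 windows the lines shared fewer regions than the arms of a line did. Of the 130 regions 38 (29.2%) were called in all 8 libraries, against 20.4% of all regions, and 71 (54.6%) in at least 1 library of each line, against 39.5%. Regions called in all 4 KOPN-8 libraries and no 697 library numbered 13 (10.0%, against 7.30% of all regions). The reverse, regions called in all 4 697 libraries and no KOPN-8 library, numbered only 2 (1.54%, against 5.85%), both of them at BACH2. Counting any call, 14 regions (10.8%) were called in 697 alone and 45 (34.6%) in KOPN-8 alone, against 32.2% and 28.3% of all regions. Against the genome the windows held a smaller share of regions found in 697 alone and a larger share of regions called in all libraries. No test was made of these counts.

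**Figure D1:**
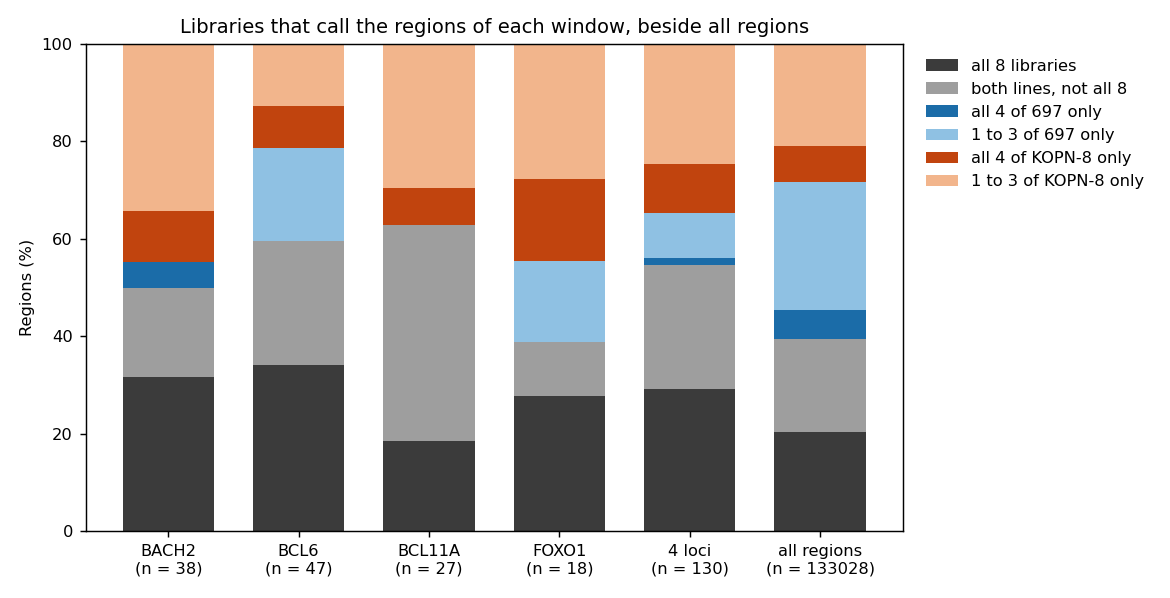
Stacked bars give the percentage of regions (y axis) by the libraries that call them, for each window, for the 4 windows together and for all regions of the 8 lists (x axis, with the number of regions). Dark blue, regions called in all 4 697 libraries and no KOPN-8 library, is present at BACH2 alone of the windows, and dark red, the reverse, makes up 10.0% of the regions of the 4 windows.

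The 697 clone had 68 and 80 peaks in the 4 windows, against 59 and 65 in its control, and the KOPN-8 clone had 98 and 93, against 95 and 92 in its control. Since lists differ in length, counts were divided by it. Per 10000 peaks of the list the windows held 10.8 and 10.5 in the 697 clone against 10.3 and 9.27 in its control. In KOPN-8 they held 14.6 and 14.4 in the clone against 13.5 and 14.5 in the control. In 697 the clone averaged 10.6 ± 0.236 (SD, n = 2) and its control 9.80 ± 0.743. The KOPN-8 clone averaged 14.5 ± 0.127 and its control 14.0 ± 0.693. In 697 the difference was 0.827, and the arms did not overlap (exact permutation, two-sided p = 0.333, the smallest possible). In KOPN-8 it was 0.493, and they overlapped (exact permutation, two-sided p = 0.667). The difference was slightly above the SD of the control in 697 and below it in KOPN-8. How often such sets of windows separate the arms over the genome was not counted. In the strongest 50% of each list the clone minus control difference turned round, to -1.47 in 697 and -0.162 in KOPN-8, and with 1 library left out it ranged from 0.302 to 1.35 in 697 and from 0.00259 to 0.983 in KOPN-8.

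**Figure D2:**
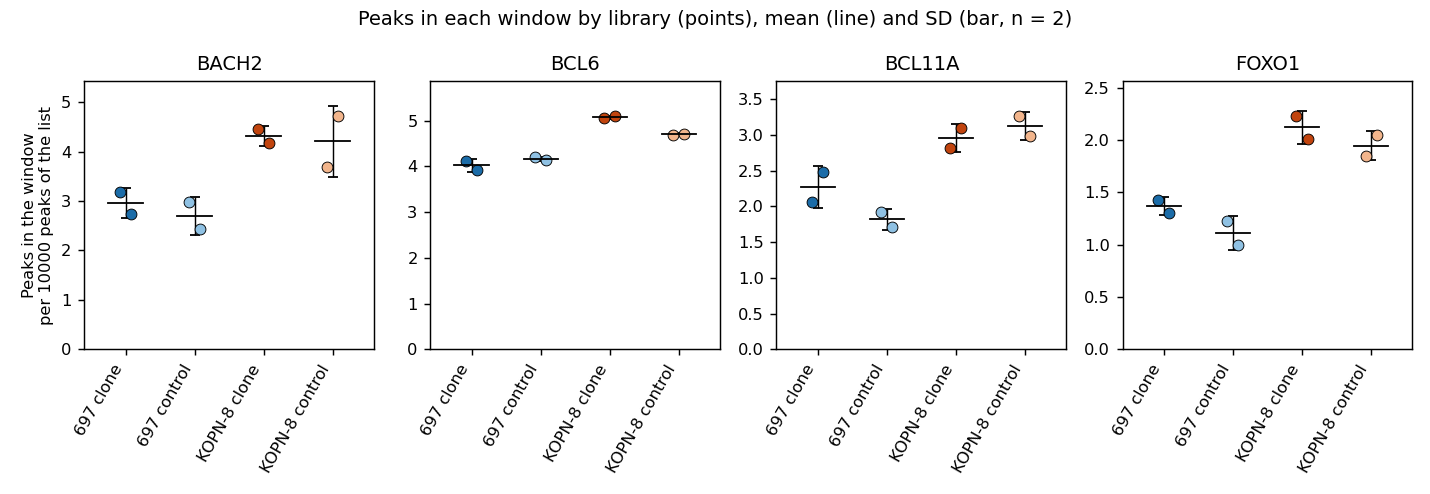
Points give the number of peaks in each window per 10000 peaks of the list (y axis) for the 2 libraries of each group (x axis), lines the mean and bars the SD (n = 2). In each of the 4 windows all 4 libraries of 697, in blue, lie below all 4 of KOPN-8, in red.

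Pairs of libraries shared a larger percentage of their regions in the windows than genome-wide. The duplicates of the 697 clone shared 58 of the 78 regions that either called (74.4%), those of its control 48 of 70 (68.6%), those of the KOPN-8 clone 79 of 105 (75.2%) and those of its control 80 of 99 (80.8%). A clone library and a control library shared 71.9 ± 4.02% (SD, 4 pairs) in 697, a mean within the range of the 697 duplicates. In KOPN-8 they shared 72.1 ± 2.39%, and all 4 pairs (69.2% to 75.0%) lay below both KOPN-8 duplicates. Libraries of different lines shared 50.9 ± 3.22% over 16 pairs. Over all regions the percentages were lower, between 64.4% and 71.7% for duplicates and 40.9 ± 1.05% for different lines. There a clone and a control library shared 62.7 ± 2.27% in 697, where duplicates averaged 65.2%, and 66.1 ± 0.741% in KOPN-8, where duplicates averaged 70.7%.

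**Figure D3:**
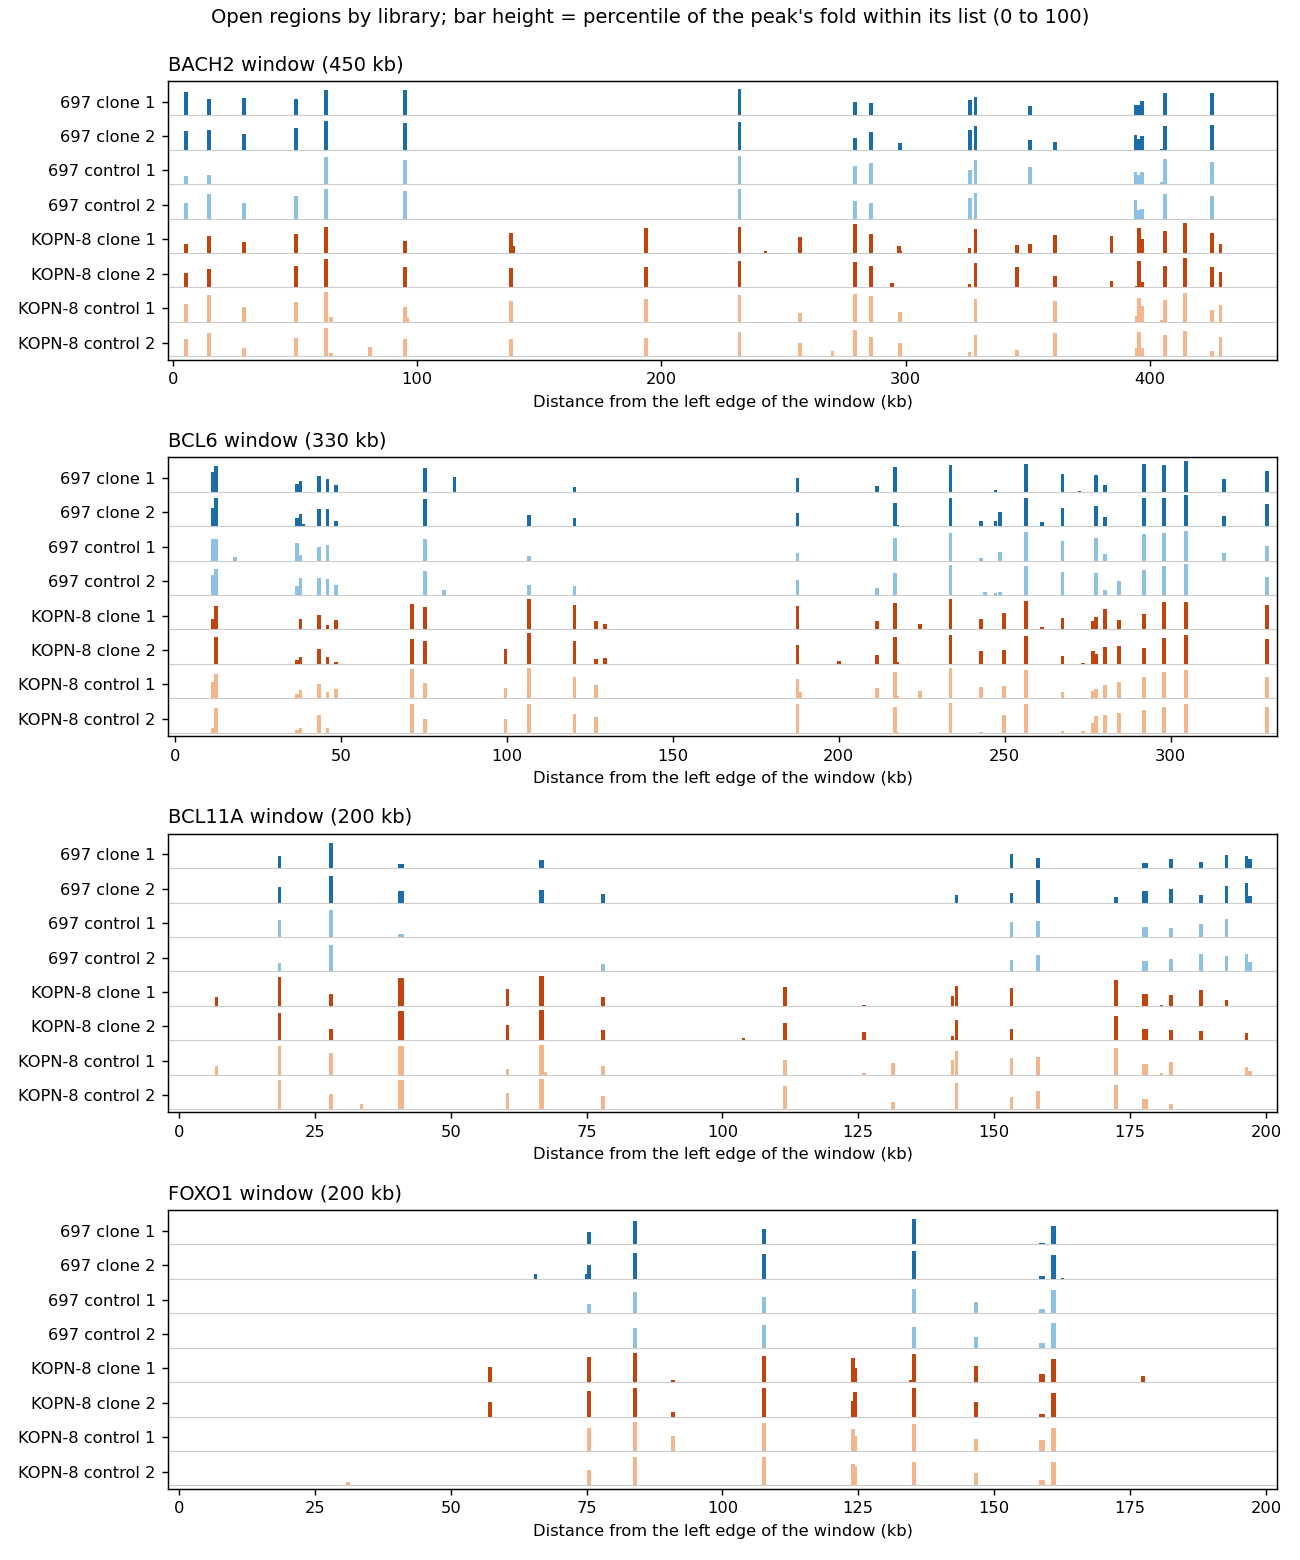
Each bar is a region called in a library, placed by its distance in kb from the left edge of the window (x axis), with 1 row per library, and its height is the percentile of the peak's fold within that library's list, from 0 to 100. Bars narrower than the page resolution were widened to be visible. Regions in the KOPN-8 rows alone are seen in every window, and bars common to all 8 rows are present in each of the 4.

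BACH2, in the longest window, had fewer peaks in 697 than in KOPN-8, and so did the sequence around it. The window held 20 and 21 peaks in the 697 clone and 17 and 17 in its control, and 30 and 27 in the KOPN-8 clone and 26 and 30 in its control. Per 10000 peaks of the list this was 2.83 ± 0.322 (SD, n = 4) in 697 and 4.26 ± 0.439 in KOPN-8. The 697 value was 0.664 times that of KOPN-8 and no 697 library reached any KOPN-8 library (exact permutation, two-sided p = 0.0286, the smallest that 4 against 4 libraries can give). Of windows of the same length along the genome 27.5% separated the lines in this direction, so the separation is common. Peaks in the 5 Mb on each side of the window were also fewer in 697, at 20.9 ± 1.26 per 10000 against 32.2 ± 2.01. Taken as a percentage of the peaks within this stretch, the BACH2 window held 11.9% in 697 and 11.7% in KOPN-8 (exact permutation, two-sided p = 0.83, n = 4 per line). The lower peak number of 697 at BACH2 was thus matched by its surroundings. BACH2 peaks covered 8.27 and 9.47 kb in the 697 clone and 6.56 and 6.85 kb in its control, and 12.3 and 11.3 kb in the KOPN-8 clone and 11.1 and 11.7 kb in its control. As a share of the covered bases of a list 697 had 0.676 times the KOPN-8 value, without overlap, as in 31.0% of windows.

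Within the window the peaks of both lines met at a few strong sites. Folds given here are the unlabelled value that each list holds for a peak, read as fold over background. The strongest region called in all 8 libraries was chr6:90662282-90663040, with folds of 10.3 and 13.4 in the 697 clone, 11.8 and 14.7 in its control, 10.6 and 12.5 in the KOPN-8 clone and 14.3 and 12.6 in its control. Its lowest percentile within a list, where 100 is the strongest peak, was 82.4. It was followed by chr6:90831589-90832342 (lowest percentile 79.6) and by chr6:91005622-91007119 (67.3), which at 1498 bp was the widest region of the 4 windows. The 12 regions of this window called in all 8 libraries had a median width of 756.5 bp, against 718 bp for all regions of that kind.

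The regions of 697 alone at BACH2 were chr6:90926287-90926691, with percentiles of 50.2 and 62.7 in the clone and 46.3 and 67.3 in the control, and chr6:90993994-90994331, with 34.2 and 48.1 in the clone and 40.6 and 59.2 in the control. The first lies 9 bp from a region called in 3 KOPN-8 libraries, chr6:90926039-90926277, and with peaks up to 100 bp apart merged 1 region of 697 alone remained in the 4 windows. In all KOPN-8 libraries alone 4 regions were called (10.5%, against 7.30% of all regions). The strongest was chr6:91014009-91014604, with folds of 15.0 and 15.4 in the clone and 13.1 and 10.0 in the control. In 2 of these lists, those of the clone, it was the strongest peak of the whole window. The next were chr6:90793624-90793976 (lowest percentile 60.6) and chr6:90738083-90738469 (56.8), which lie in a stretch without any 697 peak on either side of a gap of 54.4 kb that no library filled.

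Other BACH2 regions were called in both lines with unlike rank, and these were chosen after their values were seen. In 697 the region chr6:90694866-90695364 had percentiles of 81.7 and 87.6 in the clone and 78.1 and 88.6 in the control, against 38.2 and 66.0 in the KOPN-8 clone and 49.6 and 56.7 in its control. The opposite order was seen at chr6:90995301-90996076, with 32.7 and 36.0 in the 697 clone and 29.5 and 27.9 in its control, against 80.2 and 84.2 in the KOPN-8 clone and 78.8 and 78.0 in its control. Of the 12 regions called in all libraries, 3 had higher percentiles in every 697 list and 2 in every KOPN-8 list, against 19.0% and 13.3% of all regions of that kind. Percentiles are ranks within lists of different length and were not tested.

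Whether the arms separated at BACH2 depended on the measure in 697. Per 10000 peaks the window held 3.17 and 2.75 in the 697 clone against 2.97 and 2.43 in its control, and 4.46 and 4.18 in the KOPN-8 clone against 3.69 and 4.72 in its control. The groups overlap (exact permutation, two-sided p = 0.667 in 697 and p = 1 in KOPN-8, where 2 against 2 libraries can give no less than 0.333). In 697 the clone lay above its control without overlap in undivided numbers, 20 and 21 peaks against 17 and 17, as in 23.0% of windows. It did so also in the share of covered bases, with 0.0309% and 0.0286% against 0.0278% and 0.0236%, as in 27.6% of windows, and as a percentage of the peaks within 5 Mb, with 13.7% and 12.2% against 11.8% and 10.0%, as in 21.7%. That percentage also reflects the flanks, which held 20.0 and 19.7 peaks per 10000 in the 697 clone against 22.2 and 21.8 in its control. In KOPN-8 the arms overlapped in each of these measures. A region was counted as gained where both clone libraries and no control library called it, and as lost in the opposite case. In 697 0 of the 38 BACH2 regions were gained or lost, against 3.08% gained and 1.32% lost of all regions. In KOPN-8 2 were gained, against 2.45% of all regions, chr6:90984134-90984452, with percentiles of 54.8 and 22.5, and chr6:90842480-90842827, with 7.48 and 2.69. The 1 region lost, against 2.59% of all regions, was chr6:90664506-90664721, with 15.3 and 10.6 in the control. All but 1 of these 6 percentiles lay below 50.

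BCL6 had more peaks than any of the other windows in 7 of the 8 libraries and as many as BACH2 in the remaining one. It held 26 and 30 peaks in the 697 clone and 24 and 29 in its control, and 34 and 33 in the KOPN-8 clone and 33 and 30 in its control. Windows differ in length, and the mean per Mb was 82.6 in 697 and 98.5 in KOPN-8, against 68.75 and 101.25 at BCL11A. Per 10000 peaks of the list the mean was 4.10 ± 0.121 (SD, n = 4) in 697 and 4.89 ± 0.218 in KOPN-8, 0.838 times as many, and no libraries of the lines overlapped (exact permutation, two-sided p = 0.0286). Windows of 330 kb did so in this direction in 27.5% of cases by number of peaks and in 31.9% by share of covered bases, in which the BCL6 window of 697 had 0.844 times the KOPN-8 value, also without overlap. Relative to the rest of chromosome 3 the window held 3.22 to 3.40 times as many peaks per Mb in 697 and 4.16 to 4.42 times as many in KOPN-8. The flanks of 5 Mb were also lower in 697, at 48.1 ± 1.31 per 10000 (46.9 to 49.7) against 50.8 ± 1.00 (49.9 to 52.2) in KOPN-8. As a percentage of the stretch the window held 7.85% in 697 and 8.79% in KOPN-8 (exact permutation, two-sided p = 0.0286, n = 4 per line), without overlap, as in 23.0% of windows.

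The peaks of BCL6 fell into separate groups along the window. In the first 50 kb lay 10 regions, with 4 common to every library and 8 to both lines. A sparse part followed, with a gap of 57.6 kb without any peak after 187549745. Between 250 and 300 kb from the left edge the window held 11 regions, and 6 of these were common to every library, the most of any 50 kb in the 4 windows.

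The strongest shared peaks lay in the right part of the window. At chr3:187724402-187725009 the folds were 20.5 and 22.2 in the 697 clone, 15.5 and 19.0 in its control, 12.4 and 13.0 in the KOPN-8 clone and 12.0 and 12.6 in its control. In the 697 lists this peak was the strongest of the window and stood at ranks 72 and 51 of all peaks in the clone and 1617 and 323 in the control. All KOPN-8 folds lie below all 697 folds there, although folds of different lists are not on a common scale. Next came chr3:187676137-187676844, whose percentiles lay between 89.4 and 93.7 in all 8 lists, and chr3:187653217-187654167 (lowest percentile 85.8), which was the strongest peak of the window in both KOPN-8 control lists. The widest region of the window, chr3:187717634-187718631, had 998 bp and a lowest percentile of 82.7. Of the 16 BCL6 regions called in all 8 libraries, 4 had higher percentiles in every 697 list, chr3:187724402-187725009 among them, and 3 in every KOPN-8 list. Over all regions of that kind the shares were 19.0% and 13.3%.

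In KOPN-8 a second set of strong peaks lay nearer to the left edge. The region chr3:187491046-187491960 was called in the 4 KOPN-8 libraries alone, with folds of 10.1 and 10.2 in the clone and 13.9 and 13.3 in the control. A further region, chosen after its values were seen, was chr3:187526363-187527003, with percentiles of 98.4 and 98.3 in the KOPN-8 clone and 96.3 and 93.8 in its control. In 697 it was called in 3 of 4 libraries, with 35.5 in 1 clone library and 14.3 and 30.8 in the control. It was the strongest peak of the window in both lists of the KOPN-8 clone. In all 4 KOPN-8 libraries and no 697 library 4 BCL6 regions were called (8.51%, against 7.30% of all regions). After chr3:187491046-187491960 the next by lowest percentile were weaker, chr3:187669636-187669999 with 38.7 and chr3:187696449-187696835 with 23.5. At BCL6 0 regions were called in all 4 697 libraries and no KOPN-8 library, against 5.85% of all regions. In 1 to 3 697 libraries alone 9 were called. Counting any call in 697 alone this was 19.1%, against 32.2% of all regions.

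By peaks per 10000 the arms separated at BCL6 in opposite directions in the lines, and in 697 the other measures did not show this. Per 10000 peaks of the list the window held 4.13 and 3.92 in the 697 clone against 4.20 and 4.14 in its control, a difference of -0.144. There the nearest libraries, at 4.126 in the clone and 4.137 in the control, lay closer together than 1 peak is worth. In KOPN-8 it held 5.05 and 5.10 in the clone against 4.69 and 4.72 in the control, a difference of 0.376. In neither line did the groups overlap (exact permutation, two-sided, with the smallest possible p = 0.333 each time), which 18.8% and 23.2% of all 330 kb windows also showed in these directions. In undivided numbers of peaks the clone had on average more in both lines, by 1.5 in 697 and by 2 in KOPN-8, and the arms overlapped. The share of covered bases overlapped in 697, with 0.0380% and 0.0354% in the clone and 0.0364% and 0.0380% in its control. In KOPN-8 it did not, with 0.0449% and 0.0465% in the clone and 0.0414% and 0.0422% in its control, as in 27.9% of windows. As a percentage of the peaks within 5 Mb the arms overlapped in 697, and in KOPN-8 the clone lay above its control, with 9.07% and 9.27% against 8.53% and 8.29%, as in 22.2% of windows. No region of BCL6 was gained or lost in 697, against 3.08% gained and 1.32% lost of all regions. In KOPN-8 2 were gained (4.26%, against 2.45%) and 0 lost (against 2.59%). KOPN-8 gained chr3:187549487-187549745, with percentiles of 16.8 and 18.9, and chr3:187458691-187458960, with 0.877 and 0.496, near the bottom of both lists and called also in 1 697 library.

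BCL11A was the window in which the lines differed most in covered sequence. The 697 clone had 13 and 19 peaks there and its control 11 and 12, and the KOPN-8 clone had 19 and 20 and its control 23 and 19. The peaks covered 4.33 and 6.08 kb in the 697 clone and 3.15 and 4.80 kb in its control, against 9.20 and 8.51 kb in the KOPN-8 clone and 10.6 and 8.16 kb in its control. As a percentage of all covered bases of a list this was 0.501 times as much in 697 as in KOPN-8, and the lines did not overlap (exact permutation, two-sided p = 0.0286, n = 4 per line). Of all 200 kb windows 34.0% separated the lines in this direction by covered bases. Per 10000 peaks the window held 2.05 ± 0.326 (SD, n = 4) in 697 and 3.04 ± 0.186 in KOPN-8, again without overlap (exact permutation, two-sided p = 0.0286), as did 28.5% of windows.

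Unlike BACH2, the surroundings of BCL11A had no deficit in 697. The flanks of 5 Mb held 34.5 ± 0.956 peaks per 10000 in 697 and 32.5 ± 1.06 in KOPN-8, and chromosome 2 as a whole 956 ± 11.3 and 836 ± 5.38. The window took 5.60% of the peaks of its stretch in 697 and 8.56% in KOPN-8, and the lines did not overlap (exact permutation, two-sided p = 0.0286, n = 4 per line), as in 25.9% of windows.

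**Figure D4:**
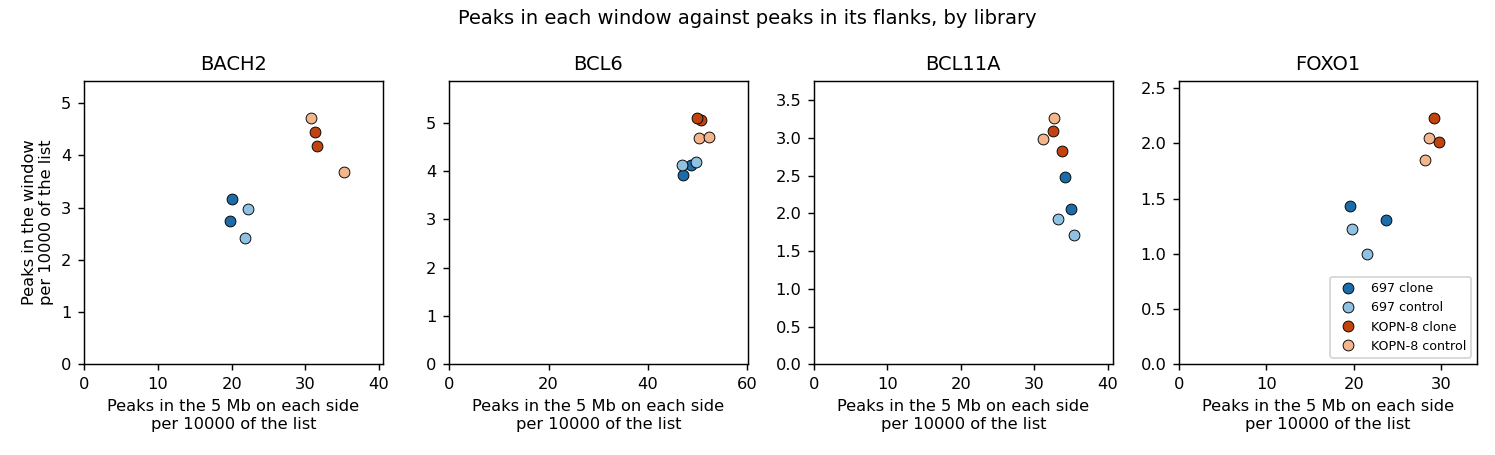
Each point is a library, with the peaks in the 5 Mb on each side of the window per 10000 peaks of its list on the x axis and the peaks in the window per 10000 on the y axis. At BACH2, BCL6 and FOXO1 the 697 libraries, in blue, are lower than the KOPN-8 libraries, in red, on both axes, while at BCL11A they are lower on the y axis alone.

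Several BCL11A regions ranked high in KOPN-8 and were low or absent in 697. At chr2:60666332-60667178 folds were 15.7 and 16.6 in the KOPN-8 clone and 14.3 and 15.5 in its control, the strongest peak of the window in each of those lists. In 697 it was called in the clone alone, with folds of 4.56 and 5.08 and percentiles of 25.7 and 40.3. It was the only region gained in the 697 clone in the 4 windows, that is 1 of 130 (0.769%), against 3.08% of all regions. At chr2:60618184-60618811, called in all 8 libraries, percentiles were 39.0 and 51.0 in the 697 clone and 54.1 and 27.6 in its control, against 94.4 and 88.7 in the KOPN-8 clone and 92.6 and 92.3 in its control. Another such region, chosen after its values were seen, was chr2:60640330-60641385, 1056 bp wide, with 11.9 and 36.0 in the 697 clone and 10.7 in 1 control library, against 88.1 and 92.9 in the KOPN-8 clone and 91.8 and 92.6 in its control.

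In KOPN-8 alone 10 BCL11A regions were called (37.0%, against 28.3% of all regions), 2 of them in all 4 libraries (7.41%, against 7.30%). These were chr2:60711208-60711855, with percentiles of 60.3 and 54.5 in the clone and 48.0 and 74.3 in the control, and chr2:60660152-60660685, with a lowest percentile of 17.5. A pair of regions chosen after their values were seen, chr2:60742788-60743423 and chr2:60772103-60772671, were called in the 4 KOPN-8 libraries and in 1 697 library, that of clone replicate 2, which has the longest list. No region of the window was found in 697 alone, in any number of libraries, against 32.2% of all regions. A strong 697 region was chr2:60627584-60628386, the highest peak of the window in each of the 4 697 lists, with folds of 10.3 and 11.7 in the clone and 11.1 and 10.7 in the control, against 5.06 and 5.07 in the KOPN-8 clone and 7.72 and 6.03 in its control.

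Of the 27 BCL11A regions 17 (63.0%) had a call in both lines and 5 (18.5%) in all 8 libraries, against 39.5% and 20.4% of all regions. For those 5 the median percentile was 40.8 in 697 and 43.7 in KOPN-8. Over all regions called in all 8 libraries the median percentile lay between 71.5 and 79.0 by list. Of the 5, 1 had higher percentiles in every 697 list and 1 in every KOPN-8 list, against 19.0% and 13.3% of all regions of that kind. Among the 5 was the widest region of the window, chr2:60777117-60778224, with 1108 bp and percentiles from 16.8 to 38.7, and chr2:60753034-60753366, with a lowest percentile of 31.4. From 150 to 200 kb the window held 12 regions, 11 of them called in both lines.

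Clone libraries of 697 had more BCL11A peaks per 10000 than its control, at 2.06 and 2.48 against 1.92 and 1.71, without overlap (exact permutation, two-sided p = 0.333), which 23.3% of 200 kb windows showed. The share of covered bases overlapped, with 0.0162% and 0.0184% in the 697 clone and 0.0134% and 0.0165% in its control (exact permutation, two-sided p = 0.667). In KOPN-8 the clone had 2.82 and 3.09 against 3.27 and 2.99 in its control, and the groups overlap (exact permutation, two-sided p = 0.667). As a percentage of the peaks within 5 Mb the 697 clone lay above its control, with 5.56% and 6.76% against 5.47% and 4.62%, as in 20.6% of windows, and the KOPN-8 clone below its control, with 7.72% and 8.66% against 9.09% and 8.76%, as in 20.4%. In KOPN-8 1 region was gained (3.70%, against 2.45% of all regions) and 2 were lost (7.41%, against 2.59%). The gained one, chr2:60787965-60788262, had percentiles of 52.4 and 29.2 and was called in all 4 697 libraries too. The lost regions were chr2:60757764-60758459, with 57.8 and 57.2 in the control and called in all 4 697 libraries, and chr2:60731240-60731620, with 36.8 and 22.7 and called in no 697 library. At the first of these the KOPN-8 clone was thus the one group without a peak.

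FOXO1 had the fewest peaks of the 4 windows. It held 9 and 10 in the 697 clone and 7 and 7 in its control, and 15 and 13 in the KOPN-8 clone and 13 and 13 in its control. Since windows differ in length, the mean per Mb was 41.25 in 697 and 67.5 in KOPN-8, against 41.7 and 62.8 at BACH2. Per 10000 peaks of the list the mean was 1.24 ± 0.181 (SD, n = 4) in 697 and 2.03 ± 0.157 in KOPN-8, 0.610 times as many, without overlap (exact permutation, two-sided p = 0.0286), as in 28.5% of windows of this length. FOXO1 peaks covered 3.36 and 3.86 kb in the 697 clone and 2.55 and 2.996 kb in its control, and 6.62 and 6.19 kb in the KOPN-8 clone and 5.28 and 4.82 kb in its control. As a share of the covered bases of a list 697 had 0.560 times the KOPN-8 value, without overlap, as in 34.0% of windows. In the clones alone it had 0.537 times that value, against 0.554 times at BCL11A. The flanks of 5 Mb were also lower in 697, at 21.1 ± 1.92 per 10000 against 28.9 ± 0.676. As a percentage of the stretch the window held 5.58% in 697 and 6.57% in KOPN-8, and there the lines overlapped (exact permutation, two-sided p = 0.143, n = 4 per line).

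The strongest shared regions of FOXO1 were chr13:41214979-41215563, with folds of 10.6 and 12.6 in the 697 clone, 9.45 and 7.47 in its control, 12.3 and 13.8 in the KOPN-8 clone and 11.4 and 8.75 in its control, and chr13:41163460-41164195 (lowest percentile 62.2). The region on the left had percentiles from 91.3 to 94.5 in KOPN-8 and from 62.2 to 85.0 in 697. All KOPN-8 lists lay above all 697 lists, as in 13.3% of all regions called in all 8 libraries. A region with like percentiles in both lines was chr13:41240479-41241312, from 58.8 to 78.5. The median percentile of the 5 regions called in all libraries was 72.0 in 697 and 88.7 in KOPN-8. Of these 5, 2 had higher percentiles in every KOPN-8 list and 0 in every 697 list, against 13.3% and 19.0% of all regions of that kind.

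In KOPN-8 alone the FOXO1 window held 3 regions called in all 4 libraries (16.7%, against 7.30% of all regions). A pair of them, chr13:41203809-41204210 and chr13:41204231-41204641, lie 20 bp apart and had percentiles from 46.1 to 78.7. The remaining one, chr13:41239446-41240422, was 977 bp wide when merged over the lists but had peaks of only 478 and 389 bp in the clone and 241 and 443 bp in the control, with folds of 2.21 and 2.30 in the clone and 2.19 and 2.34 in the control, percentiles below 0.1 in each list. After merging it lies between, and 46 and 56 bp from, the widest region of the window, chr13:41238335-41239399 (1065 bp, percentiles from 5.08 to 34.7), and chr13:41240479-41241312, both called in all 8 libraries. With peaks up to 100 bp apart merged, the pair joined each other and chr13:41239446-41240422 joined these neighbours. Regions called in all 4 KOPN-8 libraries and no 697 library then fell from 13 to 11 over the 4 windows. The share of 16.7% at FOXO1 thus depends on the merging rule.

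Arms at FOXO1 gave 1.43 and 1.31 peaks per 10000 in the 697 clone against 1.22 and 0.999 in its control, without overlap (exact permutation, two-sided p = 0.333), as in 23.3% of windows. Undivided numbers of peaks did not overlap in 697 either, as in 22.8% of windows, nor did the share of covered bases, with 0.0126% and 0.0117% in the clone and 0.0108% and 0.0103% in its control, as in 27.9% of windows. In KOPN-8 they gave 2.23 and 2.01 in the clone against 1.85 and 2.04 in the control, with overlap (exact permutation, two-sided p = 0.667). The share of covered bases did not overlap there, with 0.0228% and 0.0224% in the KOPN-8 clone and 0.0178% and 0.0180% in its control, a ratio of 1.26, as in 29.3% of windows. As a percentage of the peaks within 5 Mb the arms overlapped in both lines. Chromosome 13 as a whole took 274 and 273 peaks per 10000 in the KOPN-8 clone against 339 and 327 in its control, but the flanks of FOXO1 held 29.1 and 29.7 against 28.1 and 28.6, so the deficit of that chromosome was not seen around the gene. The one region lost in the 697 clone in the 4 windows was chr13:41226248-41227014, with percentiles of 35.2 and 34.3 in the control and between 37.8 and 52.1 in all 4 KOPN-8 lists. KOPN-8 gained 1 region, chr13:41136969-41137543, with 48.5 and 47.5 in the clone. Each was 5.56% of the 18 FOXO1 regions, against 1.32% of all regions lost in 697 and 2.45% gained in KOPN-8.

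Counted over the 4 windows, the 697 clone gained 1 region and lost 1 (0.769% each, against 3.08% and 1.32% of all regions). The KOPN-8 clone gained 6 (4.62%, against 2.45%) and lost 3 (2.31%, against 2.59%). No region of the windows was gained or lost in both lines. The share of all regions with a change in both lines was not counted, so nothing is read from this. These counts are small. With 1 library left out the 697 clone gained 3 to 13 and the KOPN-8 clone 8 to 13. The rule is looser then, so a higher count follows from the rule and does not measure how stable the counts are.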

How the data were processed

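Peak lists were deposited for 8 ATAC-seq libraries, 1 list per library. The submitters' processing notes name Bowtie2, MACS2 and the hg19 build. Versions, settings, the handling of duplicates and any shift of insertion sites are not stated there. The fifth column of each deposited list was read as the fold of each peak over local background, a linear ratio, and was used only to describe and rank peaks within a list. Between 0.946% and 1.04% of the peak numbers in a list are missing. Peaks were at least 200 bp wide. Read depth is unknown, so no interval from counts is given.

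Coordinates are in hg19, counted from 1. Lists were merged over all 8 libraries where peaks share at least 1 bp. Lines were compared by an exact permutation test over libraries, on the absolute difference of means, with a threshold of 0.05. The adjustment over the 4 loci that the design set was used to say which calls hold under alternatives and is not printed, since the loci, windows and named regions were chosen with earlier results of these data known. As a background, the genome was divided into windows of 200, 330 and 450 kb with a mean of at least 5 peaks per list, a choice made after seeing the data, like that of the 5 Mb flanks. Regions named were, per window, the 3 with the highest lowest percentile among those called in all 8 libraries and among those of each line alone, every region gained or lost, and the widest. Alternatives were lists shortened to 57154 peaks or to their strongest 50%, peaks of at least 300 bp, covered bases, undivided counts, peaks wholly inside a window, merging within a line, calls that cover 50% of a region, each arm alone, a replicate block and leaving out each library in turn. Python 3.11.15 with pandas 2.3.3 and scipy 1.17.1 was used, and the calling code was tested on simulated lists.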

Additional observations from a re-analysis of the deposited data

Results flagged for a closer look

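By peaks per 10000 of the list, BCL6 was the one of the 4 windows in which the clone libraries lay on opposite sides of their controls in the lines. They were lower in the 697 clone than in its control by a mean difference of -0.144, and higher in the KOPN-8 clone than in its control, with a difference of 0.376. The difference between these effects was not tested. In undivided numbers the BCL6 arms overlapped in both lines, with the clone higher on average, and as a percentage of the peaks within 5 Mb it was BCL11A at which the arms separated in opposite directions.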

How the results depend on the processing

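The line differences kept their sign in all 4 windows under every alternative but 1: as a percentage of peaks within 5 Mb on each side, the difference at BACH2, 697 minus KOPN-8, was 0.203, the reverse of the main -1.43. In that setting it was -0.934 at BCL6, -2.96 at BCL11A and -0.990 at FOXO1, and none held after adjustment. Before adjustment BCL6 and BCL11A still separated the lines without overlap (exact permutation, two-sided p = 0.0286 each), and FOXO1 did not. The adjustment runs over the 4 loci, so whether 1 locus holds depends also on the others. With undivided counts the differences, -9.5 at BACH2, -5.25 at BCL6 and FOXO1 and -6.5 at BCL11A peaks, did not hold after adjustment either. Before adjustment BACH2 and FOXO1 still separated the lines without overlap (exact permutation, two-sided p = 0.0286 each). At BCL6 and BCL11A the lines overlapped (exact permutation, two-sided p = 0.0571 and 0.0857). At BCL6 the difference did not pass in the strongest 50% of each list, -0.710, or with peaks of at least 300 bp, -0.700. Settings whose smallest possible p lies above the threshold could not pass: controls alone (-1.51, -0.534, -1.31 and -0.833 at BACH2, BCL6, BCL11A and FOXO1), clones alone (-1.36, -1.05, -0.684 and -0.752), and the replicate block (-1.43, -0.794, -0.997 and -0.793, exact permutation p = 0.0556). With 1 library left out the differences ranged from -1.62 to -1.28, from -0.862 to -0.722, from -1.14 to -0.885 and from -0.855 to -0.712. The call was then lost at BACH2 without 697 control replicate 2 (-1.30) and at BCL11A without KOPN-8 clone replicate 2 (-0.980) or KOPN-8 control replicate 1 (-0.922) or 2 (-1.01), each with an exact permutation p of 0.0571.

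Over the 4 windows the clone minus control difference of 0.827 in 697 and 0.493 in KOPN-8 became -1.47 and -0.162 in the strongest 50% of each list, and ranged from 0.302 to 1.35 and from 0.00259 to 0.983 with 1 library left out. Regions gained in 697 numbered 0 in the strongest 50%, 3 with peaks of at least 300 bp and 5 with calls covering 50% of a region, and those lost 0 in the last of these. KOPN-8 gained 2 in the strongest 50%. With 1 library left out 697 gained 3 to 13 and lost 1 to 6, and KOPN-8 gained 8 to 13 and lost 7 to 9, since the rule is then looser. In 697 the gained were 13 and 3 without clone replicates 1 and 2 and 6 and 8 without control replicates 1 and 2, and the lost 3 without clone replicate 2 and 6 and 2 without control replicates 1 and 2. KOPN-8 gained 10 and 13 without clone replicates 1 and 2 and 11 without control replicate 1, and lost 8 and 9 without clone replicates 1 and 2 and 7 without either control. Regions of 697 alone numbered 1 in the strongest 50%, 0 with peaks of at least 300 bp and 1 with peaks up to 100 bp apart merged, a setting added after seeing the data, and 2 to 3 with 1 library left out. Regions of KOPN-8 alone numbered 11 to 17 throughout, and 13 to 16 with 1 library left out. Regions called in all 8 libraries numbered 14 in the strongest 50%, 19 with peaks of at least 300 bp and 24 with calls covering 50% of a region, and 38 to 41 with 1 library left out. Leaving out a library loosens the rule for each of these counts, so those ranges do not measure how stable they are. The cause of these changes was not tested. The labels give same-numbered libraries of the arms a common number and nothing more. Over 1 Mb windows their deviations correlated by 0.199 in 697 and -0.0986 in KOPN-8. In 697 replicate 1 had the shorter list in both arms (63012 against 76495 and 57154 against 70099 peaks). In KOPN-8 it had the longer list in both (67301 against 64667 and 70430 against 63585). Whether same-numbered libraries share a batch was not tested. Counts of regions do not involve the block. Read depth, not known here, limits which weak regions a list can hold.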
